A study of Mus musculus with 31 samples.

Results

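The solute carrier (Slc) genes encode most of the membrane transporters that move sugars, amino acids, ions, metals, organic anions, nucleotide sugars and vitamins across the plasma membrane and across the membranes of organelles. They were taken as every probe set with a single gene symbol that begins with Slc and a digit, and where a gene had several, the brightest on average over all arrays stood for the gene. This gave 151 genes of 8251 on the array. They were grouped by the substrate of their family: 24 amino acid transporters, 20 carriers of inorganic ions, 20 carriers of the mitochondrial inner membrane, 17 metal transporters, 14 carriers of transmitters, osmolytes or organic cations, 13 of organic anions, 10 of sugars, 10 of nucleotide sugars, 10 of vitamins or choline, 5 of fatty acids, 2 of nucleosides and 3 others. The remaining 3 (Slc4a1ap, Slc9a3r1 and Slc9a3r2) carry the family symbol but encode binding partners of transporters rather than transporters.

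The study profiled mouse embryonic stem (ES) cells, the pluripotent cells of the early embryo kept in culture, and the embryoid bodies (EBs) into which they differentiate when grown in suspension without LIF, the cytokine that holds them undifferentiated. The methods describe B6 mouse ES cells grown on mouse embryonic feeders in fetal calf serum with LIF and then depleted of feeders. They do not mention the sorted cells, so culture and feeder depletion are not stated for that group. The 31 arrays fall into 5 groups: ES cells passaged on gelatin (day 0, 6 arrays), ES cells sorted by flow cytometry on Oct4-GFP (day 0, 6 arrays), and EBs after 4 days (7 arrays), 8 days (6 arrays) and 14 days (6 arrays) of differentiation. The EBs were seeded from the gelatin cells, and no sorted cells are described as a source of EBs. Both ES groups were used as references and their results are given side by side; these comparisons share the day 14 arrays. Nothing in the labels says whether the arrays of a group came from separate cultures, while the methods speak of biological samples, so the p-values measure the spread between arrays.

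Transporters mark what a cell takes up and gives off. Visceral endoderm of the yolk sac, a tissue that forms in EBs, is known for apical uptake of nutrients much as in gut, kidney and liver, and the low-affinity glucose carrier Slc2a2 is a familiar gene of these epithelia. ES cells and early embryonic cells are known for high glycolysis and amino acid uptake, served by the glucose carriers Slc2a1 and Slc2a3 and by the heteromeric amino acid transporters, in which a light chain such as Slc7a5 pairs with a heavy chain such as Slc3a2.

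The values are signal intensities on a linear scale, and differences are on the log2 scale (1 is a doubling), with the standard error (SE) of the fit and a p adjusted over all 12422 probe sets tested (limma, Benjamini-Hochberg). A gene passed at an adjusted p under 0.05. Signal was compared between arrays for each probe set and never between genes. Of the 151 genes, 1 (Slc10a2) lay under the floor of 59.6 on every array and 8 more on some arrays, and 31 were below the 25th percentile of brightness.

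Some arrays stood apart from their labelled group. Arrays 6 and 7 of day 4 correlated more with the day 8 mean (r = 0.9796 and 0.9859) than with the mean of day 4 arrays 1 to 5 (0.9631 and 0.9747), and 28 of the 151 genes were above, and 28 below, the range of those 5 arrays on both (18.5% each, against 20.2% and 20.2% of all genes). Array 2 of day 8 correlated more with the day 14 mean (0.9895) than with its own group (0.9851). On day 8 arrays 2 and 4 together, 31 of the 151 genes were above and 23 below the other 4 arrays. These were 20.5% and 15.2%, against 23.9% and 19.3% of all genes. For the larger steps that involve day 4 or day 8, values without these arrays are therefore given as well. The gelatin arrays had a 3′ to 5′ signal ratio of the Gapdh control, a sign of RNA length, of 5.22 ± 1.55 (SD, n = 6), against 2.92 ± 0.146 in sorted cells and 2.31 to 3.12 in the EB group means. All 10 ES cell markers, Pou5f1 and Nanog among them, were lower at day 14 than in sorted cells, and 6 of 10, with Pou5f1, were lower than in gelatin cells. Those that did not pass against gelatin were Nanog (-0.29, adjusted p 0.333), Sox2 (0.02, 0.964), Zfp42 (-1.16, 0.0725) and Klf4 (-0.74, 0.0646).

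The promoters of the 5 genes that rose over 2-fold at day 14 against both ES groups, and of Slc27a2, the gene with the largest fall against gelatin cells, are shown here because the values of these 6 genes are described in full. Each sequence is the 250 bases before the first annotated start (RefSeq, GRCm38.p6), read 5′ to 3′ along the gene: Slc2a2 at chr3:28697653-28697902 (plus strand), Slc39a8 at chr3:135825029-135825278 (plus), Slc7a9 at chr7:35448842-35449091 (plus), Slc16a1 at chr3:104638414-104638663 (plus), Slc22a23 at chr13:34345219-34345468 (minus) and Slc27a2 at chr2:126552774-126553023 (plus). Capitals mark matches on either strand to short motifs. For the GATA factors of endoderm and blood the letters searched were AGATAA. Those for the liver and gut factor HNF1 were GTTAAT, and those for HNF4, another factor of the same tissues, were CAAAGT. The E-box was searched as CACGTG, the GC box bound by Sp1 as GGGCGG, and the box bound by the TATA-binding protein by its letters TATAAA.
Slc2a2: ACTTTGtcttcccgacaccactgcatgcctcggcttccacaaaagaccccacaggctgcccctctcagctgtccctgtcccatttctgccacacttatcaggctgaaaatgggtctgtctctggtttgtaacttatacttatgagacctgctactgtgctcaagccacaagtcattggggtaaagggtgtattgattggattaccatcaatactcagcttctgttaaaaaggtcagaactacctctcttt
Slc39a8: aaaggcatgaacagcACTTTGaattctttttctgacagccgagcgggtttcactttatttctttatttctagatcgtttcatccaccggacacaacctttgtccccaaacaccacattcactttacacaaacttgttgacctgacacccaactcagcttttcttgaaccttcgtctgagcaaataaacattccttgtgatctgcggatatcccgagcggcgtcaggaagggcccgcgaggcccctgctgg
Slc7a9: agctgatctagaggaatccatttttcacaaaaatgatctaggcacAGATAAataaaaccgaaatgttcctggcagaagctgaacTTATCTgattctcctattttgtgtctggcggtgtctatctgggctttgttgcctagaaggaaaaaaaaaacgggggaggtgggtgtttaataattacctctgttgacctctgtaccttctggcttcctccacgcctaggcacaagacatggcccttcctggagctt
Slc16a1: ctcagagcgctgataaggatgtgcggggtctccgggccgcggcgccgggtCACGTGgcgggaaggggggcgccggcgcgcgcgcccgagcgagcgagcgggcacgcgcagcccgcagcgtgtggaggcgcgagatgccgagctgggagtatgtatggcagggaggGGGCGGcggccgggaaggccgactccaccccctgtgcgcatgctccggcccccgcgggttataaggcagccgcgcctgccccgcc
Slc22a23: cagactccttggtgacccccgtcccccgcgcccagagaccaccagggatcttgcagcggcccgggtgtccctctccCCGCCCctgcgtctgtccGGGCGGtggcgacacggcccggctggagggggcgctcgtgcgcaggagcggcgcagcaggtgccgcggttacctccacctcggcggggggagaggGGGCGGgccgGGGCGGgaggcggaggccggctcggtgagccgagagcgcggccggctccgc
Slc27a2: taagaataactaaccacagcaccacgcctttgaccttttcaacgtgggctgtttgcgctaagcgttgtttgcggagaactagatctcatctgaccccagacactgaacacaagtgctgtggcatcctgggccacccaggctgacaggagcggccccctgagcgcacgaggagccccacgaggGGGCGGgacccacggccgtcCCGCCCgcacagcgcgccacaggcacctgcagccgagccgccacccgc
The promoters differed in their share of G and C. Those of Slc2a2, Slc39a8 and Slc7a9 had 47.2%, 47.6% and 44.4% G and C with 2, 11 and 4 CpG dinucleotides, while Slc16a1 and Slc22a23 had 76.4% and 78.4% with 37 and 32; the median over 32851 annotated promoters was 52.4% and 6. The Slc2a2 and Slc39a8 windows each held 1 match to CAAAGT, a motif found in 12.6% of all promoters, and the Slc7a9 window held 2 matches to AGATAA (9.99%). Slc16a1 had 1 CACGTG (6.02%) and 1 GGGCGG (32.7%), Slc22a23 had 4 GGGCGG and Slc27a2, with 64% G and C, had 2. None of the 6 windows held GTTAAT (6.43%) or TATAAA (12.4%). A match is a run of letters and not a measured binding site.

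Of the solute carriers, 108 of 151 (71.5%) differed among the 5 groups by the F test of the fit, where 76% of all genes did. At day 14, 34 were higher and 33 lower than in gelatin cells, when 22.8% of all genes were higher and 24.1% lower. Against sorted cells 45 were higher and 38 lower, with 27% and 24.4% of all genes. The median difference over the 151 genes was 0.04 against gelatin and 0.02 against sorted cells (0.0014 and 0.0020 over all genes), so the family as a whole was centred near no change. Relative to both ES groups 20 genes rose (13.2%, all genes 15%) and 17 fell (11.3%, all genes 13%), a balance that turned to 18 and 23 after quantile normalization and to 16 and 23 with median centring. Over 2-fold against both, 5 rose (Slc39a8, Slc16a1, Slc2a2, Slc7a9 and Slc22a23; 2.81% of all genes) and 2 fell (Slc27a2 and Slc6a8; 0.982% of all genes). These shares lay near those of all genes. The split against sorted cells depended on the scaling: median centring of the arrays, which shifted the all-gene median by -0.11, gave 28 higher and 54 lower, and quantile normalization gave 30 and 49. In bulk RNA such as this, fewer cells of a type and less RNA per cell cannot be told apart.

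**Figure D1:**
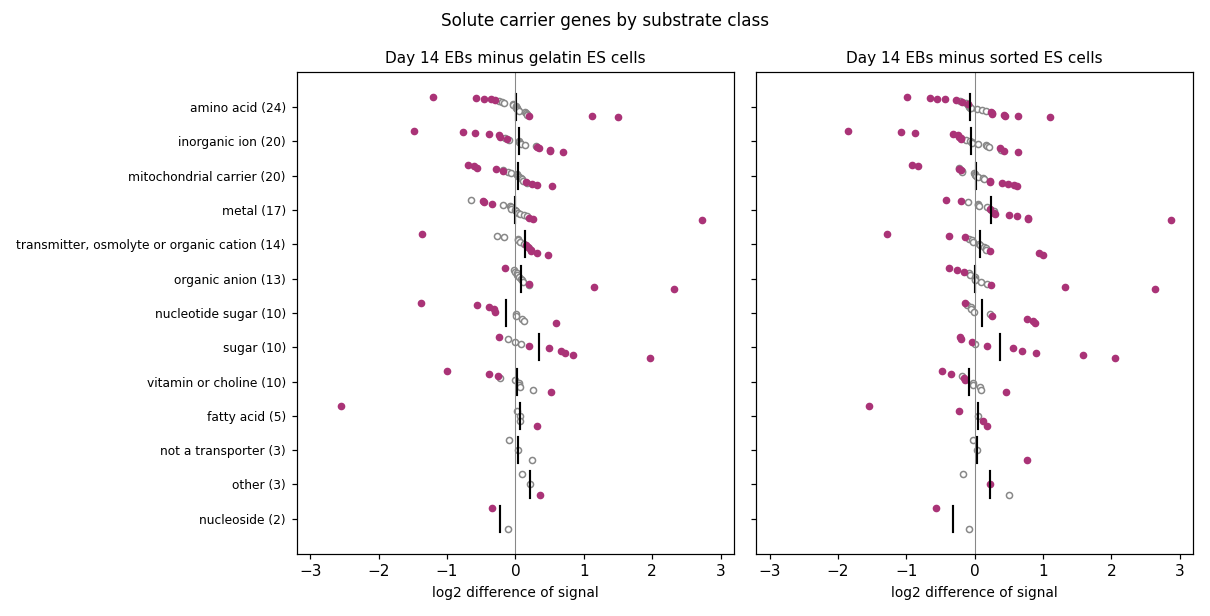
Log2 difference of each solute carrier gene at day 14 (horizontal axis) by substrate class, against gelatin ES cells and against sorted ES cells. Each point is a gene, filled where the adjusted p was under 0.05, and the bar is the class median: the sugar carriers had medians of 0.34 and 0.37, and the nucleotide sugar carriers -0.14 and 0.11.

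Carriers of sugars were the class with the highest median at day 14 among those of 5 or more genes, 0.34 against gelatin cells and 0.37 against sorted cells. Of the 10 measured, 6 rose and 1 fell against gelatin, and 6 rose and 3 fell against sorted cells. With median centring 5 rose and 3 fell against sorted cells, with a median of 0.26. Over all genes 22.8% rose and 24.1% fell against gelatin, and 27% and 24.4% against sorted cells. These shares are the ones to set beside each day 14 count of a class or list below. Slc2a2 encodes the low-affinity hexose carrier of liver, kidney and gut. Its signal was 131, 189 and 192 (lowest, median and highest array) on gelatin, 140, 164 and 192 in sorted cells, 139, 164 and 187 at day 4, 188, 243 and 544 at day 8, then 454, 709 and 917 at day 14. Every day 14 array was above every ES array, and the rise was 1.97 ± 0.19 (SE, adjusted p 2.78e-09) against gelatin and 2.06 ± 0.19 (1.32e-09) against sorted cells. Most of it came after day 8, by 1.30 ± 0.19 (1.38e-05) over day 8 as a whole and by 1.65 ± 0.15 (1.44e-08) without day 8 arrays 2 and 4, which read 544 and 377 and were the highest of their group.

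Slc2a1, the basal glucose carrier of most cells, read 3573, 4414 and 4632 on gelatin and 3570, 4050 and 5008 in sorted cells. At day 4 it read 2933, 3266 and 7505, at day 8 5209, 5801 and 7397, and at day 14 6764, 7539 and 8824. Day 14 did not overlap either ES group, with rises of 0.84 ± 0.17 (adjusted p 0.000236) and 0.90 ± 0.17 (0.0001). The day 4 spread came from arrays 6 and 7, at 6353 and 7505, while arrays 1 to 5 lay between 2933 and 3270. With all 7 arrays the difference of day 4 from gelatin was -0.13 (adjusted p 0.646), and without those arrays Slc2a1 fell by 0.45 on the log2 scale (0.000576) before rising by 0.94 from day 4 to day 8. The step from day 4 to day 8 passed with all arrays (0.61, 0.00784) and did not without day 8 arrays 2 and 4 (0.50, 0.0573).

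Slc2a3, the high-affinity glucose carrier known from neurons and the early embryo, read 4018, 4810 and 5941 on gelatin, 2200, 2606 and 3042 in sorted cells, 2939, 3590 and 9848 at day 4, 6326, 7634 and 8707 at day 8, then 6884, 7768 and 9647 at day 14. The ES groups themselves did not overlap, gelatin being higher by 0.91 ± 0.21 (adjusted p 0.00124), so the rise at day 14 was 0.67 ± 0.21 (0.0118) against gelatin and 1.58 ± 0.21 (7.31e-07) against sorted cells. Day 4 arrays 6 and 7 read 8353 and 9848 and arrays 1 to 5 between 2939 and 4259. Without them Slc2a3 was 0.53 lower at day 4 than on gelatin (log2 difference -0.53, adjusted p 0.000996), and with them -0.12 (0.739). A dimmer probe set of the gene rose by 1.24 and 0.72 at day 14 but placed gelatin below sorted cells by 0.52 (-0.52 ± 0.17, 0.0135), so the order of the ES groups differed between the probe sets, and at day 4 it was above gelatin (0.57, 0.00949).

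Further sugar carriers, chosen after their values were seen, rose by less. Slc37a4, which carries glucose 6-phosphate into the endoplasmic reticulum, had 1020, 1098 and 1359 at day 14 and at most 932 on any earlier array, a rise of 0.49 ± 0.09 (adjusted p 3.89e-05) against gelatin and 0.56 ± 0.09 (6.33e-06) against sorted cells. Slc5a11, a sodium-coupled carrier of myo-inositol, rose by 0.73 and 0.69. The intestinal and renal sodium glucose carrier Slc5a1 read under the floor on most arrays and had no measurable difference from gelatin at day 14 (0.00).

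**Figure D2:**
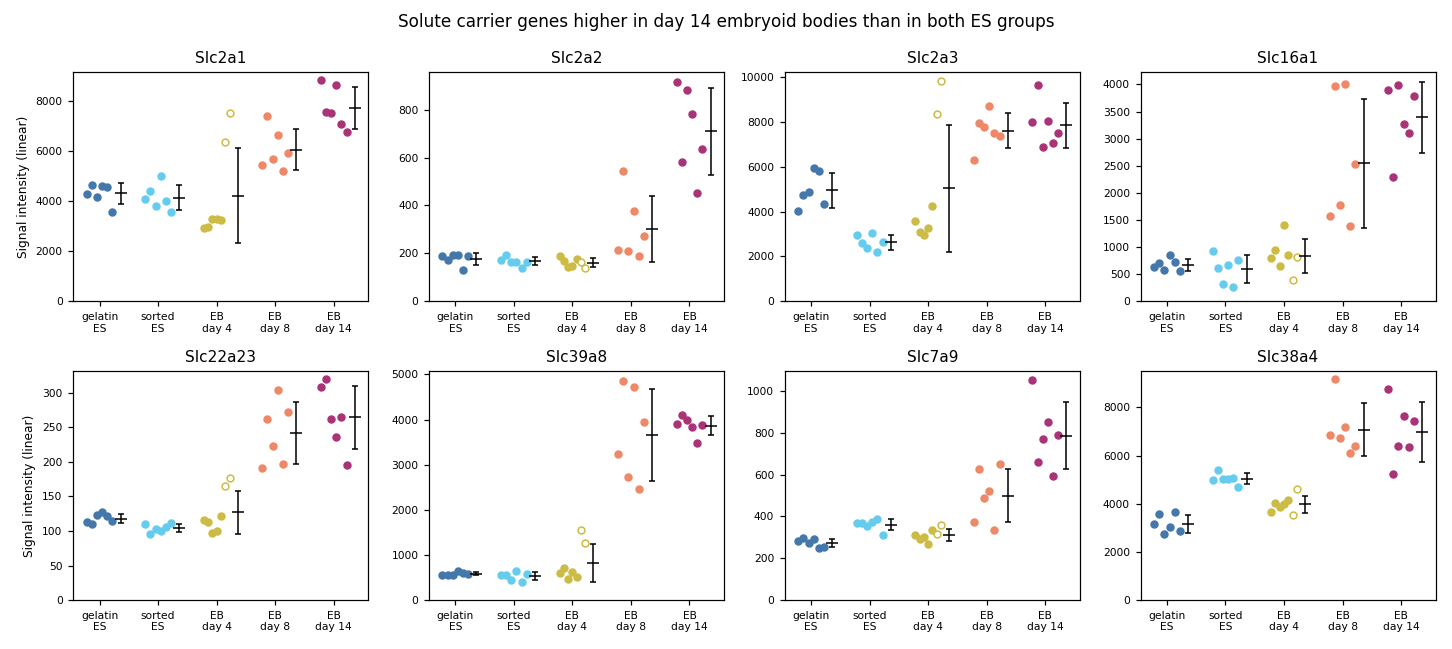
Signal intensity (vertical axis, linear) of 8 solute carrier genes higher in day 14 EBs than in both ES groups, by group along the horizontal axis. Points are arrays, open circles are day 4 arrays 6 and 7, and bars are the mean ± SD. For Slc39a8 and Slc22a23 the difference between day 8 and day 14 did not pass. Slc16a1 was within or above its day 14 range on day 8 arrays 2, 4 and 6, and Slc2a2 and Slc7a9 climbed further.

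Among the 13 organic anion carriers, 3 rose and 1 fell against gelatin and 3 rose and 3 fell against sorted cells (2 and 6 with median centring). Slc16a1 encodes the monocarboxylate transporter that moves lactate and pyruvate with a proton. Its signal was 564, 668 and 857 on gelatin, 257, 639 and 925 in sorted cells, 392, 810 and 1397 at day 4, 1395, 2154 and 4004 at day 8, then 2286, 3528 and 3992 at day 14. Day 14 lay wholly above both ES groups, by 2.32 ± 0.30 (adjusted p 3.93e-07) and 2.63 ± 0.30 (4.81e-08). The step from day 4 to day 8 was 1.57 ± 0.29 (0.000238), and 1.38 ± 0.30 (0.000759) without day 4 arrays 6 and 7 or 1.18 ± 0.30 (0.00587) without day 8 arrays 2 and 4. From day 8 to day 14 the difference was 0.52 ± 0.30 (0.199), and 0.91 ± 0.31 (0.0202) without day 8 arrays 2 and 4, which at 3971 and 4004 already read as high as day 14.

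Monocarboxylate transporters reach the cell surface with a glycoprotein partner, Bsg or Emb. Emb (embigin) read 3032, 3367 and 4672 on gelatin, 1758, 3017 and 3146 in sorted cells, 3154, 3791 and 6451 at day 4, 8069, 12028 and 14464 at day 8, then 11485, 13785 and 15951 at day 14. No day 14 array overlapped an ES array, and the rise was 1.98 ± 0.17 (adjusted p 2.58e-10) against gelatin and 2.35 ± 0.17 (1.18e-11) against sorted cells. Its step from day 4 to day 8, 1.43 ± 0.16 (3.25e-07), or 1.60 and 1.28 without the same pairs of arrays, fell in the same interval as that of Slc16a1. Bsg (basigin), the other partner, differed by 0.03 (0.921) and 0.38 (0.0614) at day 14 and did not pass. Slc22a23, a member of the organic ion transporter family with no settled substrate, read 110, 118 and 127 on gelatin, 95.9, 104 and 112 in sorted cells, and 196, 263 and 320 at day 14. It rose by 1.15 ± 0.13 (5.45e-08) and 1.32 ± 0.13 (4.36e-09), all of its day 8 arrays (191 to 304) being above its day 4 arrays (97.4 to 176); this dim probe set lost the step from day 4 to day 8 when the floor was raised to the 25th percentile (0.16).

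A fixed list of 22 further partner genes of transporters, such as sodium pump subunits, scaffolds and Slco organic anion carriers, had 8 members on the array. Of these, 3 were higher, 1 lower and 4 did not pass against gelatin at day 14, and 3, 0 and 5 against sorted cells. The members higher in both were Emb, Pdzk1 and Atp1b1. Pdzk1, the scaffold that holds transporters at the apical membrane, read 106 to 124 on gelatin, 122 to 159 in sorted cells and 548, 749 and 1408 (lowest, median, highest) at day 14. It rose by 2.83 ± 0.19 (adjusted p 3.33e-12) and 2.50 ± 0.19 (3.65e-11). Atp1b1, a beta subunit of the sodium pump that drives sodium-coupled uptake, rose by 0.58 (1.56e-05) and 0.44 (0.000435). The other measured pump subunits did not pass: Atp1b2 differed by 0.11 (0.118) and 0.10 (0.149), and the brighter Atp1b3 by -0.07 (0.871) and 0.35 (0.223).

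Of the 17 metal transporters, 3 rose and 3 fell against gelatin and 8 rose and 2 fell against sorted cells (4 and 3 after quantile normalization or median centring), with medians of -0.01 and 0.24. The largest rise of any solute carrier in both comparisons was that of Slc39a8, an importer of zinc, manganese and iron. It read 555, 571 and 644 on gelatin, 395, 565 and 643 in sorted cells, 459, 616 and 1553 at day 4, 2471, 3594 and 4851 at day 8, then 3474, 3893 and 4095 at day 14. The ES and day 14 arrays were fully separate, with a rise of 2.72 ± 0.22 (adjusted p 7.58e-11) against gelatin and 2.88 ± 0.22 (3.07e-11) against sorted cells. The step fell between day 4 and day 8 (2.26 ± 0.21, 1.09e-08), at 2.62 without day 4 arrays 6 and 7 and 2.04 without day 8 arrays 2 and 4. The difference between day 14 and day 8 did not pass, with all arrays (0.12, 0.728) or without that day 8 pair (0.34, 0.269). Day 4 arrays 6 and 7, at 1553 and 1259, were intermediate, with arrays 1 to 5 between 459 and 720.

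Other zinc importers moved less or in other directions. Slc39a4, the uptake carrier of gut and yolk sac, read 2210, 2561 and 2947 on gelatin, 2228, 2431 and 2994 in sorted cells and 1509, 1880 and 2179 at day 14, a fall of -0.47 ± 0.10 (adjusted p 0.000475) and -0.42 ± 0.10 (0.00116). A second, dimmer probe set of Slc39a4 rose instead, by 0.28 (0.000816) and 0.16 (0.0466), so the direction of this gene was not settled. The copper importer Slc31a1, chosen after its values were seen, also had probe sets that parted: the brighter differed from gelatin by -0.07 (0.608) and the dimmer rose by 0.92 (7.27e-07). Over all genes with several probe sets, 34 further probe sets could be set against the one used. At day 14 against gelatin 4 of them had the same call, 13 shared the lack of one, 1 had the opposite call and 16 differed in whether they passed. Against sorted cells these counts were 8, 9, 1 and 16. Between the ES groups they were 3, 9, 2 and 20, so few calls there were shared by a second probe set.

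Among the 24 amino acid carriers, 3 rose and 5 fell against gelatin, and 7 rose and 7 fell against sorted cells (3 and 10 with median centring), with medians of 0.01 and -0.07. The class therefore did not move one way, and its members are given by role. Slc7a5 is the light chain that imports large neutral amino acids such as leucine. It read 2835, 3555 and 4323 on gelatin, 2506, 3074 and 3510 in sorted cells, 2278, 2684 and 2839 at day 4, 1839, 1930 and 2176 at day 8, then 1384, 1435 and 1997 at day 14. The signal stepped down at each EB day, by -0.43 (adjusted p 0.0013) at day 4 against gelatin, -0.41 (0.00243) to day 8 and -0.36 (0.00643) to day 14, and the day 4 step did not pass after quantile normalization (-0.29). At day 14 the fall was -1.20 ± 0.10 (1.29e-10) against gelatin and -0.99 ± 0.10 (4.39e-09) against sorted cells, with no overlap. Its heavy chain Slc3a2 read 3119, 3473 and 3843 on gelatin, 3913, 4517 and 5117 in sorted cells and 2580, 2857 and 3091 at day 14, and fell by 0.30 ± 0.07 (0.000676) and 0.65 ± 0.07 (7.12e-09). The fall of the heavy chain was the smaller against each reference, as measured on separate probe sets.

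The light chain Slc7a9, which takes up cystine and cationic amino acids in kidney and gut, moved the other way. It read 251, 276 and 298 on gelatin, 311, 368 and 388 in sorted cells, 270, 309 and 360 at day 4, 334, 506 and 649 at day 8, then 591, 781 and 1053 at day 14. All day 14 arrays were above all ES arrays, and Slc7a9 rose by 1.50 ± 0.13 (adjusted p 4e-10) and 1.10 ± 0.13 (9.36e-08), with like steps to day 8 (0.64, 0.000466) and to day 14 (0.67, 0.000328). Without day 8 arrays 2 and 4 these were 0.52 (0.00794) and 0.79 (9.53e-05), and without day 4 arrays 6 and 7 the first was 0.69. Its heavy chain Slc3a1, chosen after its values were seen, read 694, 779 and 894 on gelatin and 775, 888 and 946 at day 14, and its differences of 0.16 (0.123) and 0.17 (0.107) did not pass. The 2 subunits of this transporter thus differed in whether they passed.

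Slc38a4, a carrier of small neutral amino acids known for imprinted expression, rose at day 8. It read 2767, 3097 and 3657 on gelatin, 4708, 5045 and 5393 in sorted cells, 3543, 3993 and 4604 at day 4, 6097, 6787 and 9184 at day 8, then 5232, 6911 and 8782 at day 14. The rise was 1.12 ± 0.10 (adjusted p 5.29e-10) against gelatin and 0.45 ± 0.10 (0.000523) against sorted cells, where the ranges overlapped. The gelatin cells lay 0.67 below the sorted cells (-0.67 ± 0.10, 4.71e-06). Slc7a3, a cationic amino acid carrier, did not pass against gelatin at day 14 (0.01, 0.939) and was lower than in sorted cells (-0.55 ± 0.07, 1.69e-07). The reverse held for Slc7a7, the light chain that exports cationic amino acids, with -0.58 ± 0.16 (0.003) and 0.11 (0.612). Slc1a5, the glutamine importer, did not pass at day 14 (-0.24 and -0.21), and the cystine importer Slc7a11 lay mostly under the floor.

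**Figure D3:**
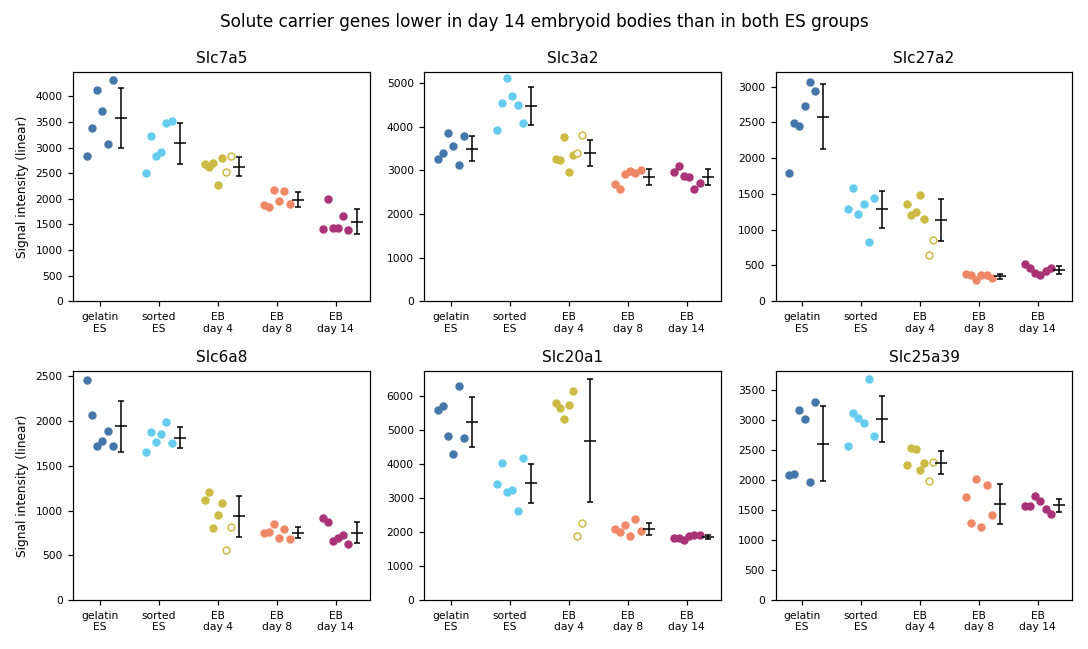
Signal intensity (vertical axis, linear) of 6 solute carrier genes lower in day 14 EBs than in both ES groups, by group along the horizontal axis. Points are arrays, open circles are day 4 arrays 6 and 7, and bars are the mean ± SD: Slc6a8 had fallen by day 4, Slc27a2 fell in steps to day 8, and Slc20a1 at day 4 was high on 5 arrays and low on arrays 6 and 7.

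The largest fall against gelatin was that of Slc27a2, which takes up and activates very long-chain fatty acids. It read 1792, 2614 and 3065 on gelatin, 829, 1324 and 1586 in sorted cells, 647, 1210 and 1479 at day 4, 290, 363 and 377 at day 8, then 363, 441 and 517 at day 14. Neither ES group overlapped day 14, and the fall was -2.55 ± 0.17 (adjusted p 1.5e-12) against gelatin and -1.54 ± 0.17 (1.55e-08) against sorted cells. The step from day 4 to day 8 was -1.66 ± 0.16 (1.92e-08), and -1.89 ± 0.14 (4.41e-11) without day 4 arrays 6 and 7, which at 647 and 849 lay below the other day 4 arrays. The other 4 fatty acid carriers moved little, Slc27a3 for example by 0.32 (0.000145) against gelatin and 0.18 (0.021) against sorted cells; the second call was lost after median centring and quantile normalization (0.07 each).

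Slc6a8, the creatine carrier, had fallen by day 4. It read 1724, 1831 and 2461 on gelatin, 1649, 1809 and 1987 in sorted cells, 562, 950 and 1208 at day 4, 678, 755 and 848 at day 8, then 630, 712 and 919 at day 14. The day 4 arrays, including arrays 1 to 5, were all below all ES arrays. The fall was -1.08 ± 0.13 (adjusted p 2.5e-07) at day 4, or -0.91 (3.87e-07) without day 4 arrays 6 and 7, and -1.37 ± 0.13 (2.27e-09) at day 14 against gelatin, and -1.28 ± 0.13 (7.54e-09) at day 14 against sorted cells. A second probe set of Slc6a8, near the 35.1 percentile of brightness, did not pass at day 14 (-0.10, 0.329 and -0.19, 0.0521) and rose at day 4 against gelatin (0.23, 0.0298).

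Slc20a1, the sodium phosphate carrier that some retroviruses use as a receptor, read 4306, 5201 and 6283 on gelatin, 2616, 3315 and 4174 in sorted cells, 1880, 2053 and 2391 at day 8, then 1782, 1852 and 1911 at day 14. The ES arrays were all above the day 14 arrays, and the fall was -1.49 ± 0.21 (adjusted p 1.8e-06) and -0.87 ± 0.21 (0.00128). At day 4 it was split, with arrays 1 to 5 between 5336 and 6157 and arrays 6 and 7 at 1883 and 2281. The step to day 8 was -1.03 ± 0.21 (0.000492) with all arrays and -1.45 ± 0.10 (7.14e-12) without those 2. Slc12a2, which imports sodium, potassium and chloride, was split likewise at day 4 (2681 to 4013, against 1000 and 1376) and rose from day 8 to day 14 by 0.98 ± 0.24 (0.00291), or 1.21 ± 0.26 (0.000628) without day 8 arrays 2 and 4. Without day 4 arrays 6 and 7 it fell to day 8 (-0.89, 5.61e-05), where with them the difference did not pass (-0.47, 0.145).

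Of the 20 mitochondrial carriers, 4 rose and 5 fell against gelatin, and 6 rose and 4 fell against sorted cells (4 and 7 after quantile normalization or median centring). Slc25a39, needed for glutathione import into mitochondria and chosen after its values were seen, fell by 0.69 ± 0.13 (adjusted p 7.66e-05) and 0.92 ± 0.13 (1.22e-06). It read 1978, 2561 and 3302 on gelatin, 2567, 2993 and 3695 in sorted cells and 1443, 1572 and 1741 at day 14, without overlap. The oxoglutarate and malate carrier Slc25a11, also chosen afterwards, rose by 0.53 ± 0.06 (3.58e-08) and 0.61 ± 0.06 (2.96e-09), from at most 2738 in any ES array to at least 3337. On the brightest probe sets the ADP/ATP carrier values depended on the reference. Slc25a4 differed from gelatin by 0.10 (0.342) and from sorted cells by 0.49 (1.81e-05), and Slc25a5 by 0.17 (0.398) and -0.83 (4.92e-05). A second probe set of Slc25a5, at the 64.6 percentile of brightness, was lower against both (-0.20, 0.00129 and -0.30, 1.24e-05), and a further, dim one passed against neither (0.11 and 0.04).

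In the remaining classes, the 20 inorganic ion carriers had 5 higher and 7 lower against gelatin, and 3 higher and 8 lower against sorted cells. The 14 carriers of transmitters, osmolytes or organic cations had 6 higher and 1 lower, then 3 and 3. The 10 of vitamins or choline had 1 higher and 3 lower, then 1 and 4. Single members of these and other classes are given next. Slc8a1, the sodium calcium exchanger of heart muscle, rose by 0.51 ± 0.11 (adjusted p 0.00032) and 0.63 ± 0.11 (2.29e-05), with 590 to 805 at day 14 and at most 520 in any ES array, while 2 dimmer probe sets of the gene differed by 0.15 and 0.19 against gelatin and by -0.05 and 0.03 against sorted cells. Slc35a2, which brings UDP-galactose into the Golgi, rose by 0.60 (3.39e-05) and 0.76 (1.03e-06), and the choline transporter-like gene Slc44a4 by 0.51 (3.96e-07) and 0.46 (2.49e-06). Slc8a1, Slc35a2 and Slc44a4 were chosen after their values were seen. A second probe set of Slc44a4, near the bottom of the brightness range, did not pass (-0.07 and 0.01). Slc29a1, the equilibrative nucleoside carrier, fell by 0.35 (0.0102) and 0.57 (9.38e-05), while a second, dimmer probe set differed by 0.02 (0.899) from gelatin and by -0.20 (0.0217) from sorted cells. The anion exchanger of red cells, Slc4a1, rose against gelatin (0.51, 4.57e-05) and did not pass against sorted cells (0.20, 0.0692).

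Which ES group was the reference changed the call of many members. Between the ES groups themselves, 33 solute carriers were higher and 31 lower on gelatin, when 23.3% of all genes were higher and 18.4% lower, and 28 and 49 with median centring or 23 and 49 after quantile normalization. At day 14, 7 of 151 genes (4.64%, all genes 3.14%) passed against both references with opposite signs. Of these Slc35d1, Slc25a51, Slc39a7, Slc38a10, Slc41a1 and Slc35b2 were lower at day 14 than on gelatin and higher than in sorted cells, and Slc4a5 the reverse. The calls of Slc38a10, Slc41a1 and Slc35b2 against sorted cells (0.25, 0.30 and 0.25) were lost with median centring (0.14, 0.19 and 0.15).

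**Figure D4:**
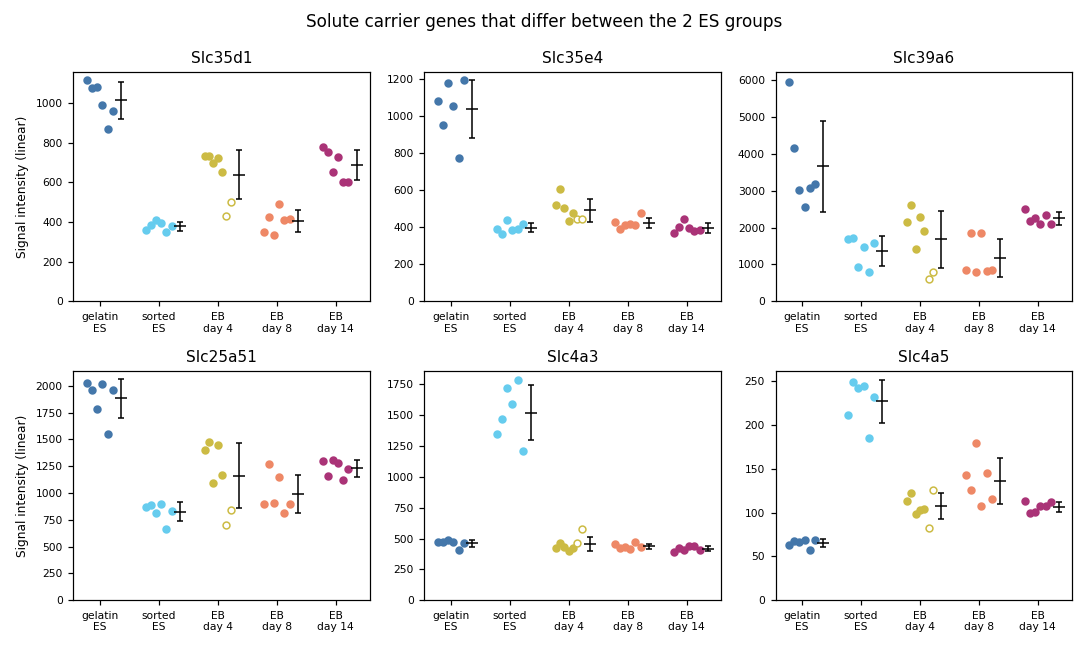
Signal intensity (vertical axis, linear) of 6 solute carrier genes that differed between the ES groups, by group along the horizontal axis. Points are arrays, open circles are day 4 arrays 6 and 7, and bars are the mean ± SD: Slc4a3 and Slc4a5 were highest in sorted cells, and Slc35d1, Slc35e4, Slc39a6 and Slc25a51 highest on gelatin.

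Nucleotide sugar carriers, which bring activated sugars into the Golgi and endoplasmic reticulum, had 6 of 10 members higher and 0 lower on gelatin than in sorted cells (4 and 2 after quantile normalization). Of all genes 23.3% were higher and 18.4% lower on gelatin. At day 14 1 was higher and 5 lower against gelatin, and 4 were higher and 1 lower against sorted cells (3 and 3 after quantile normalization or median centring). Slc35d1, which supplies UDP-sugars for chondroitin synthesis, read 869, 1032 and 1116 on gelatin, 348, 382 and 411 in sorted cells, 428, 698 and 734 at day 4, 333, 410 and 491 at day 8, then 602, 688 and 776 at day 14. Day 14 lay between the ES groups, -0.57 ± 0.11 (adjusted p 0.000169) from gelatin and 0.85 ± 0.11 (6.06e-07) from sorted cells. Slc35e4, of the same family but without a settled substrate, read 777, 1070 and 1194 on gelatin and 364, 391 and 437 in sorted cells, and at day 14, at 368, 390 and 446, it differed from sorted cells by -0.01 (0.988). Slc35a1, the carrier of CMP-sialic acid and chosen after its values were seen, was the opposite case, at 0.00 from gelatin at day 14 (adjusted p 1) and 0.88 ± 0.13 (3.4e-06) above sorted cells.

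The zinc importers Slc39a6 and Slc39a7 were also higher on gelatin, by 1.43 ± 0.31 (adjusted p 0.000583) and 1.09 ± 0.16 (2.85e-06). Slc39a6 read 2571, 3134 and 5954 on gelatin, 797, 1534 and 1730 in sorted cells, 598, 1901 and 2608 at day 4, 803, 856 and 1864 at day 8, then 2084, 2224 and 2517 at day 14. It passed against sorted cells (0.78 ± 0.31, 0.0407) only narrowly, and the call was lost without sorted array 3 (0.68) or 5 (0.63), without any single one of the 6 day 14 arrays (0.74 to 0.80) and after quantile normalization (0.69). The mitochondrial NAD carrier Slc25a51 read 1554 to 2029 on gelatin, 664 to 898 in sorted cells and 1119 to 1303 at day 14, higher on gelatin by 1.19 ± 0.14 (1.38e-07). Its second probe set was higher on gelatin too (0.43, 5.13e-05) but differed from gelatin at day 14 by only -0.03 (0.77). The taurine carrier Slc6a6, chosen after its values were seen, read 2663, 3123 and 4113 on gelatin, 1614, 1719 and 1886 in sorted cells and 2202, 3504 and 3860 at day 14, so that on this probe set it rose against sorted cells (0.94 ± 0.13, 5.82e-07) and did not pass against gelatin (0.06, 0.746). A second, dim probe set passed in neither comparison (0.0032 and -0.19) nor between the ES groups (0.20, 0.334).

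A pair of bicarbonate and anion carriers stood out in the sorted cells. Slc4a3, an anion exchanger of heart and brain, read 1206, 1529 and 1788 in sorted cells and between 395 and 575 on all 25 other arrays. Slc4a5, a sodium bicarbonate cotransporter, read 185, 237 and 249 in sorted cells and 57.6, 67.2 and 69.3 on gelatin, near the floor. The gelatin cells were lower by -1.71 ± 0.08 (adjusted p 3.94e-15) and -1.78 ± 0.10 (1.54e-13). At day 14 Slc4a3 was below sorted cells (-1.85 ± 0.08, 3.73e-16) and did not pass against gelatin (-0.15, 0.139), and Slc4a5 at 99.8, 107 and 113 was below sorted cells (-1.09, 1.02e-09) and above gelatin (0.70, 1.82e-06), the second call being lost with the floor at the 25th percentile (0.00).

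Other measures moved with the difference between the ES groups. The 9 fibroblast markers summed to 28798 to 45915 on gelatin arrays and 16109 to 21792 in sorted arrays, 5 of the 9 being higher on gelatin, 0 lower and none at the floor. The ES markers were lower on gelatin for 8 of 10, and the Gapdh 3′ to 5′ ratio was higher on every gelatin array (3.476 to 6.846) than on any sorted array (2.763 to 3.09). Their part in the solute carrier differences was not tested.

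By time, 11 solute carriers rose and 29 fell from gelatin cells to day 4, when 8.33% of all genes rose and 17.8% fell. Without day 4 arrays 6 and 7 the counts were 9 and 29 (8.41% and 17.7% of all genes). With all arrays the balance turned with the scaling, to 24 and 17 after quantile normalization and 26 and 20 with median centring. From day 4 to day 8, 23 rose and 17 fell (13.6% and 13% of all genes). Without day 4 arrays 6 and 7, 32 rose and 29 fell (20.4% and 20% of all genes). From day 8 to day 14, 29 rose and 14 fell (21.1% and 13% of all genes). These counts were 23 and 26 after quantile normalization and 20 and 32 with median centring. Leaving out day 8 arrays 2 and 4 gave 36 and 17 (24.9% and 16.8% of all genes). Slc39a6 (-1.24), Slc27a2 (-1.21), Slc6a8 and Slc35e4 (-1.08 each) fell over 2-fold to day 4, and without day 4 arrays 6 and 7 Slc35e4 (-1.03) still did, while Slc27a2 (-0.98), Slc6a8 (-0.91) and Slc39a6 (-0.79, adjusted p 0.0224) fell by less. Slc39a8, Slc16a1 and Slc22a23 made their largest step between day 4 and day 8. Of the 17 metal transporters, 7 were lower at day 4 than on gelatin and 1, the iron and manganese carrier Slc11a1, higher (0.20 ± 0.04, adjusted p 0.00079). These counts were 5 and 2 without day 4 arrays 6 and 7, the zinc exporter Slc30a1, chosen after its values were seen, then being higher as well (0.82, 0.000274), and 3 and 2 after quantile normalization. From day 4 to day 8, 4 metal transporters rose and 0 fell with all arrays, against 5 and 5 without that day 4 pair.

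Markers of other cell types moved over the same days. Of 10 measured markers of yolk sac and liver endoderm, 9 were higher and 1 (Lrp2) lower at day 14 against gelatin, and 10 were higher against sorted cells. Their summed signal was 3406 to 4136 on gelatin, 2478 to 2674 in sorted cells, 2603 to 2864 on day 4 arrays 1 to 5, 6032 and 8088 on day 4 arrays 6 and 7, 16227 to 32084 at day 8 and 33023 to 43186 at day 14. No marker of this list was at the floor in the ES groups or at day 14. Day 8 arrays 2 and 4, where Slc2a2, Slc16a1 and Slc39a8 were highest in their group, had endoderm sums of 32084 and 30339, and the other 4 arrays 16227 to 31415. On arrays 2 and 4 Slc7a9 read 624 and 523 (334 to 649 on the other 4). Slc22a23 read 261 and 304 (191 to 272 on the other 4), so neither gene stood wholly above the other 4 arrays. Against gelatin, cardiac markers rose in 4 of 6 (sum 3288 to 4629 on gelatin, 5080 to 7203 at day 14). Erythroid markers did so in 3 of 7 (3740 to 4088 and 4564 to 8511), and none of either list fell. Against sorted cells 5 cardiac markers rose and 0 fell, while 3 erythroid markers rose and 2 (Gata1 and Klf1) fell. Of 6 neural markers 3 rose and 3 fell against gelatin (16787 to 19101 and 10809 to 19720), and 3 rose and 2 fell against sorted cells. Of the 9 fibroblast markers 4 rose and 3 fell against gelatin, and 6 rose and 1 fell against sorted cells, with a sum of 33059 to 51825 at day 14. Against gelatin, the 4 that rose were Lum (4.54), Postn (4.53), Dcn (3.52) and Col3a1 (2.93). The 3 that fell were Thy1 (-2.93), Acta2 (-1.69) and Fn1 (-0.28). The part of these cell types in the rise of Slc2a2, Slc7a9, Slc16a1, Slc39a8 and Slc22a23 was not tested.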

How the data were processed

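Total RNA of B6 mouse ES cells and EBs was amplified in 2 rounds, labelled with biotin and hybridised to Affymetrix MgU74Av2 arrays by the authors, who normalized and modelled the probes with dChip (version and model not given in the sources used here). The deposited values are signal intensities on a linear scale, normalized between the 31 arrays. The methods list 12 days where the labels give 14, and the labels were followed. Later days that the methods also list are not among these 31 arrays. Of 12488 probe sets, 66 controls were left out; 10833 carry 1 gene symbol, 396 several and 1193 none. Values were raised to the 5th percentile (59.6), log2 transformed and fitted with 1 mean per group by lmFit and eBayes with a trend in limma 3.58.1 under R 4.3.3, and p was adjusted by Benjamini-Hochberg over 12422 probe sets.

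The members, substrate classes and lists were chosen with earlier results of these data known. Named genes are 14 of 16 textbook transporters that were measured, the 4 (day 14) or 3 (other steps) with the largest change in each direction whose groups did not overlap, and the 2 with the largest range in each class; 16 of the 56 named were added after their values were seen. Substrates were assigned by family. Replicate numbers were not used to pair arrays. The alternatives tried were median centring, quantile normalization, a floor at the 1st or at the 25th percentile, leaving out the dimmest 40% of probe sets, fitting the 2 groups alone, a replicate block, no variance trend, averaging the probe sets of each gene, leaving out each array, and, chosen after seeing the data, day 4 arrays 6 and 7 or day 8 arrays 2 and 4 left out. Simulated data of this layout (day 14 against gelatin, 12422 probe sets) recovered 49 of 67 changes of 0.5 on the log2 scale, 65 of 67 of 1 and 66 of 66 of 2, with 7 false calls. The number of arrays limits the precision. Promoters come from RefSeq (GRCm38.p6). Figures were drawn with matplotlib 3.10.9.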

Additional observations from a re-analysis of the deposited data

Results flagged for a closer look

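Of 280 groups of arrays over the named genes, 17 held an array whose gap to its nearest neighbour was large for the group's range, when chance gives about 1 in 20. Array 2 of day 8 was the highest of its group for Slc38a4 (9184, next 7188) and Slc5a1 (48.8, next 35.4, both under the floor), and array 7 of day 4 for Slc4a3 (575, next 464) and Slc9a3r1 (2810, next 2407). These are among the arrays that stood apart over all genes. On gelatin, array 5 was lowest for Slc2a2 (131, next 170) and Slc41a1 (313, next 372) and highest for Slc4a1 (489, next 368), array 1 was highest for Slc25a4 (12659, next 11233) and array 3 for Slc38a10 (646, next 553). In sorted cells array 5 was highest for Slc39a3 (620, next 525) and Slc38a10 (405, next 337). At day 4 array 1 was highest for Slc25a47 (531, next 494), and at day 8 array 5 for Slc39a3 (576, next 512). At day 14 array 3 was highest for Slc25a4 (13388, next 11866) and array 1 for Slc37a4 (1359, next 1118), and array 2 was lowest for Slc5a11 (1830, next 2335) and Slc6a6 (2202, next 3246).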

How the results depend on the processing

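Over the 56 named genes, 7320 values under the alternatives were set against 336 values as reported; 7042 kept their direction and their side of the threshold, 161 lost and 116 gained a call, and 1 turned in sign. That was Slc31a1 at day 14 against gelatin, 0.42 with the mean of its probe sets, because its probe sets differ. Counts of solute carriers moved by over 1.5 times as follows, and the cause was not tested. Against sorted cells at day 14, 28 were higher with median centring and 24 lower with dim probe sets left out. Between the ES groups, 49 were lower on gelatin after quantile normalization, 49 with median centring and 19 with dim probe sets left out. At day 4 against gelatin, 24 were higher and 17 lower after quantile normalization (11 and 29 as reported), 26 and 20 with median centring, and 7 were higher with dim probe sets left out. From day 4 to day 8, 13 were higher and 11 lower when fitted alone, and 29 lower without day 4 arrays 6 and 7 (20% of all genes). From day 8 to day 14, 26 were lower after quantile normalization (23 higher) and 32 with median centring (20 higher). Genes higher and lower at day 14 against both ES groups numbered 18 and 23 after quantile normalization and 16 and 23 with median centring.

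Leaving out each array in turn gave 29 to 36 higher and 32 to 34 lower at day 14 against gelatin, 41 to 46 and 31 to 39 against sorted cells, 29 to 34 and 28 to 33 between the ES groups, 9 to 13 and 24 to 30 at day 4, 17 to 25 and 11 to 26 from day 4 to day 8, and 19 to 34 and 11 to 16 from day 8 to day 14. The extremes of the lower count to day 8 came without day 4 array 1 (11) and array 6 (26), and 19 higher from day 8 to day 14 without day 8 array 3.

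With the replicate number as a block the counts were 34 and 35 at day 14 against gelatin, 48 and 35 against sorted cells, 34 and 34 between the ES groups, 10 and 27 at day 4, 24 and 21 to day 8, and 31 and 14 to day 14. The numbers share no stated source: same-numbered arrays correlated from -0.351 to 0.494 over 60 pairs after group means were removed, and 7 of 31 arrays lay nearest their own number. The precision is limited by signal over background for the 31 genes below the 25th percentile of brightness and for the genes at the floor.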
